A study of Mus musculus with 10 samples.

Results

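Cytochrome P450, glutathione transferase, UDP-glucuronosyltransferase and sulfotransferase genes were followed across sorted mouse mammary epithelial cells. Members were the genes whose symbols belong to the P450 families CYP1 to CYP4 or begin with Gst, Mgst, Ugt1, Ugt2 or Sult and that had a probe set annotated to that gene alone. Of 19935 such named genes on the array, 117 were members. Their level had to exceed a mean of 6.74 on the log2(intensity + 16) scale over all 10 arrays, the 25th percentile of all probe sets, and 52 of the 117 did, among 15815 genes tested in all. This threshold is called the dim limit below, because the files carry no detection calls and a value under it shows a weak signal, not a silent gene.

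Each of the 10 arrays held total RNA of freshly sorted cells from the mammary glands of virgin females aged 8 to 12 weeks. Lineage-negative cells (CD31-, CD45- and TER119-) were gated as CD24+ with high CD29 for the stem cell-enriched basal population, called MaSC/basal in the labels, or as CD24+ with low CD29 and no CD61 for mature luminal cells. Control basal cells filled 4 arrays, basal cells of Pygo2 SSKO littermates 3 and control luminal cells 3; there were no SSKO luminal arrays. Pygo2 encodes a chromatin reader and co-factor of beta-catenin, and the series title calls the SSKO cells Pygo2-null. The labels neither spell out SSKO, nor name the promoter that drives recombination, nor give the genotype of the control littermates. Replicates are labelled biological, without the number of animals behind each, so the p-values rest on the spread among these arrays alone.

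P450 enzymes, bound to the membrane of the endoplasmic reticulum, insert oxygen into steroids, fatty acids, drugs and pollutants and take their electrons from P450 oxidoreductase and cytochrome b5. Glutathione transferases, UDP-glucuronosyltransferases and sulfotransferases then attach glutathione, glucuronic acid or sulfate, which makes the products soluble and, for oestrogens, ends their action on the receptor. Transcription of many of these genes is raised by the aryl hydrocarbon receptor Ahr or by Nfe2l2, the regulator of the response to electrophiles. In the breast the system is known above all for the local oxidation and conjugation of oestrogens and carcinogens.

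The sorted populations carried their markers. The mean of 8 basal markers lay between 12.45 and 12.69 on the 7 basal arrays and between 7.32 and 9.50 on the luminal arrays, and the mean of 7 mature luminal markers lay between 9.26 and 10.17 against 13.02 to 13.15. Control luminal array 3 stood apart: its Krt14, a basal keratin, read 11.86 against 8.82 and 7.78 on luminal arrays 1 and 2. Other basal markers differed less, such as Cnn1 at 8.30 against 7.97 and 6.87. Markers of other cells were also present. The summed intensity of 8 endothelial markers ran from 3650 to 10100 on control basal, 3410 to 19500 on SSKO basal and 2710 to 3710 on luminal arrays, highest on SSKO basal arrays 1 and 3 and control basal array 1. The 8 fibroblast markers summed to 14100 to 28300, 12000 to 17400 and 1520 to 6860 in the same order, and Pdgfra, Lum and Dpt were under the dim limit in luminal cells. Pygo2 itself read 8.30, 9.09, 8.11 and 8.91 on the control basal arrays and 6.99, 5.94 and 5.86 on the SSKO basal arrays (log2 difference -2.34, SE 0.32, limma adjusted p = 0.0441), with every SSKO value below every control value. The SSKO mean of 6.26 lay under the dim limit. This call was lost on leaving out control basal array 1, 2 or 4, SSKO array 2 or 3 or luminal array 1 or 3 (adjusted p from 0.0614 to 0.363).

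The families differed in how many members gave a signal. Of 20 soluble glutathione transferases 18 passed the dim limit, and all 3 microsomal ones did. P450 genes passed in 28 of 70 cases, which comprised 1 of 3 in CYP1, 17 of 45 in CYP2, 2 of 6 in CYP3 and 8 of 16 in CYP4. These counts go by symbol alone. They include Cyp2d37-ps and Cyp4f41-ps, named as pseudogenes, and Gstcd, which entered by its prefix. Sulfotransferases passed in 3 of 16 cases and Ugt2 genes in 0 of 8, and no Ugt1 gene had a probe set of its own. The 65 members under the limit included the liver enzymes Cyp1a2 and Cyp2e1 and Cyp1a1, the textbook Ahr target, whose 3 group means lay between 6.37 and 6.67. Of those 65, 6 had a group mean above the limit: 4 in luminal cells, 3 in SSKO basal cells and none in control basal cells. The passing members nearest the limit were Cyp2d26 at 6.75 and Cyp4f37 and Gstp3 at 6.76, and the nearest below it were Sult4a1 at 6.71, Cyp4f14 at 6.70 and Cyp2d34 at 6.69.

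**Figure D1:**
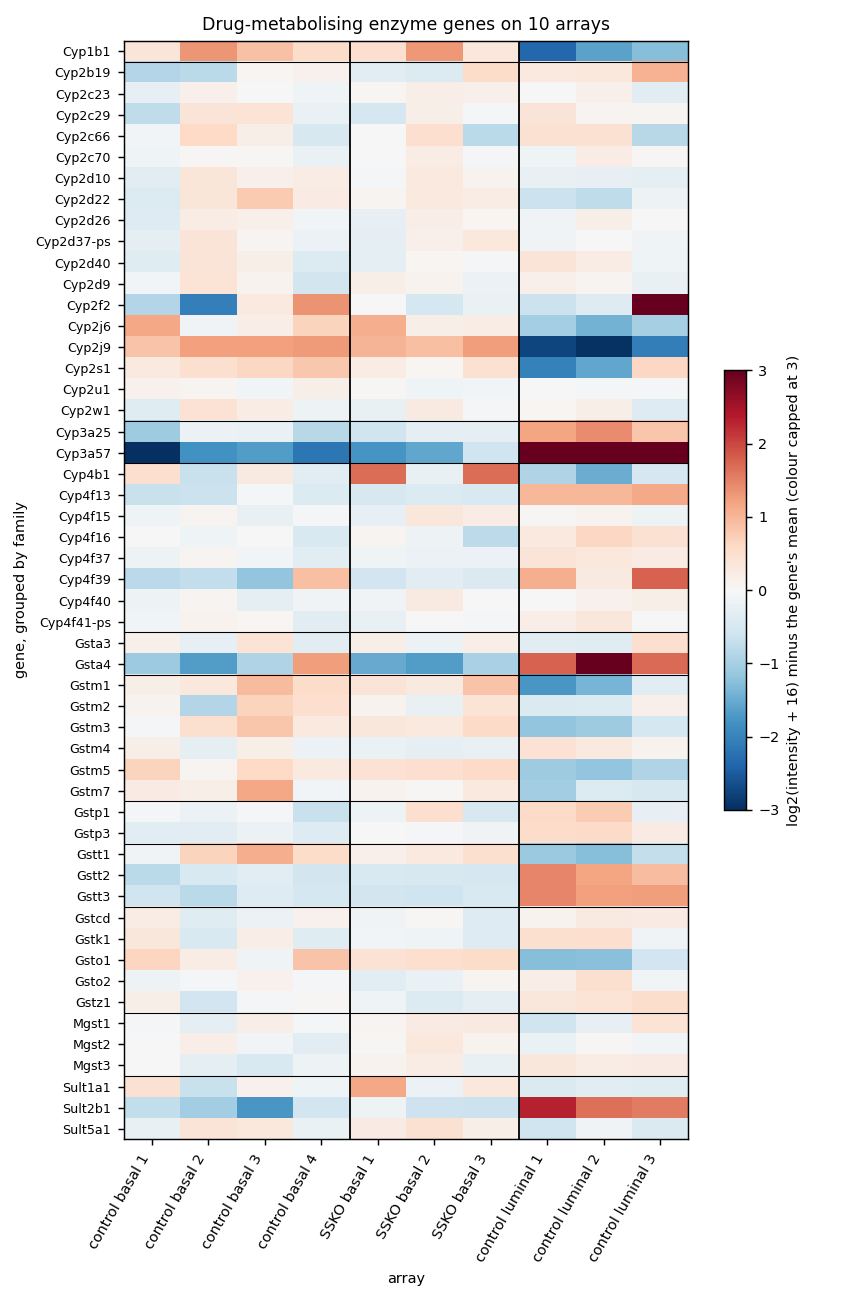
Level of the 52 members above the dim limit (vertical axis, grouped by family) on the 10 arrays (horizontal axis); colour is log2(intensity + 16) minus the gene's mean over all arrays, capped at 3. The columns of the 4 control and 3 SSKO basal arrays look alike, and the 3 luminal columns stand apart for genes such as Cyp3a57, Sult2b1, Gstt2 and Gstt3 (red) and Cyp2j9, Cyp1b1, Gstt1 and Gstm5 (blue).

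Control luminal cells were first compared with control basal cells, which asks how the normal compartments differ. Of the 52 members, 14 rose and 11 fell in luminal cells (48.1%) and 27 did not pass the test, where 44.3% of all 15815 genes were called (24.6% higher and 19.7% lower). The share of members called was thus near that of all genes. The median size of the difference, regardless of sign, was 0.52 over the members and 0.37 over all genes, and the signed medians were 0.06 and 0.07. Groups did not overlap for 22 of the 52 members and for 46.3% of all genes. Called members went both ways within CYP2, within the theta class and among the remaining soluble transferases, and a single way in each other family with calls. Values in each list of arrays below follow the array numbers.

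Cyp3a57 had the widest difference among the P450 genes. It belongs to the CYP3A family, which hydroxylates steroids and many drugs. Levels were 12.95, 13.24 and 12.52 in luminal cells and 5.24, 6.77, 6.92 and 6.42 in control basal cells, with means of 12.90 ± 0.36 (SD, n = 3) and 6.34 ± 0.76 (SD, n = 4). Every luminal value was thus far above every basal value. The log2 difference was 6.57 (SE 0.40, adjusted p = 2.37e-07), but the basal mean lay under the dim limit, so its full size is not known. Cyp3a25, a neighbour in the same gene cluster on chromosome 5, rose by 1.71 (SE 0.23, adjusted p = 0.000112), from 6.63 ± 0.45 to 8.34 ± 0.30, again from under the limit. CYP3A genes are near copies of each other, and the probe set shared by Cyp3a59, Cyp3a57 and Cyp3a25 gave 11.51, 11.80 and 11.10 in luminal cells and at most 5.56 in control basal cells. How much of the signal belongs to each of these genes is therefore uncertain.

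Cyp4f genes, whose enzymes hydroxylate the end of fatty acid and eicosanoid chains, formed the other P450 group with luminal rises. In CYP4, 4 of 8 members rose, 0 fell and 4 did not pass. Cyp4f13 read 10.59, 10.60 and 10.73 in luminal cells and 8.94, 8.97, 9.54 and 9.19 in control basal cells. The groups did not overlap, and the difference was 1.48 (SE 0.15, adjusted p = 1.16e-05). Cyp4f39 rose by 1.50 (SE 0.46, adjusted p = 0.0199), yet control basal array 4 at 9.28 lay above luminal array 2 at 8.63. Its call was lost without luminal array 3 (1.13, adjusted p = 0.0894), without luminal array 1 (adjusted p = 0.0568) and without control basal array 3 (adjusted p = 0.0556).

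The smaller P450 rises were less firm. Cyp4f16 rose by 0.59 (SE 0.20, adjusted p = 0.0365), and the call was lost on leaving out control basal array 2 or 4 or luminal array 2 or 3 (adjusted p from 0.0624 to 0.129). Cyp4f37 rose by 0.44 (SE 0.12, adjusted p = 0.00948) from under the dim limit. Its SSKO basal mean of 6.59 was also under it, so Cyp4f37 passed the limit only through its luminal mean of 7.07. Cyp2b19, an epoxygenase of arachidonic acid known from keratinocytes, rose by 0.93 (SE 0.32, adjusted p = 0.037) from a basal mean of 6.64 under the limit, and lost the call without control basal array 1 or 2 or luminal array 1 or 3 (adjusted p from 0.0502 to 0.148). It was the only CYP2 member of 17 that rose, beside 4 that fell and 12 that did not pass.

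Cyp2j9 gave the widest fall. CYP2J enzymes make epoxides of arachidonic acid. Control basal arrays read 8.86, 9.24, 9.25 and 9.28 and SSKO basal arrays 9.04, 8.92 and 9.26, whereas the luminal arrays read 5.26, 5.04 and 5.94. Basal values lay within a narrow band and every luminal value was under the dim limit. Against control basal cells the difference was -3.75 (SE 0.21, adjusted p = 1.09e-07), and its full size is not known. The adjacent gene on chromosome 4, Cyp2j6, fell by 1.62 (SE 0.30, adjusted p = 0.00113), from 8.94 ± 0.56 to 7.32 ± 0.24. These paralogues may share hybridisation.

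Cyp1b1 was the only CYP1 member with a signal above the dim limit. It hydroxylates oestradiol and activates polycyclic aromatic hydrocarbons, and it is a classical target of Ahr. Its level was 10.24, 11.21, 10.75 and 10.42 in control basal cells and 7.51, 8.26 and 8.61 in luminal cells. No luminal array reached the lowest basal one. The difference was -2.53 (SE 0.32, adjusted p = 6.2e-05), a 5.77-fold lower intensity in luminal cells. Fibroblast markers were lower in luminal cells too, and among the control basal arrays, numbers 2 and 3 were the highest for both Cyp1b1 (11.21 and 10.75) and the fibroblast markers (10.40 and 11.50). Within the other groups the order was opposite. On SSKO basal arrays Cyp1b1 read 10.39, 11.18 and 10.20 where the fibroblast mean was 10.28, 9.89 and 10.49. On luminal arrays the fibroblast mean was 7.87, 7.57 and 7.23, falling as Cyp1b1 rose. The part of other cell types in the basal level was not tested.

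Cyp2s1 and Cyp2d22 completed the P450 genes that fell. Cyp2s1, a P450 of surface epithelia, read 9.74, 9.94, 10.08 and 10.27 in control basal cells and 7.43, 7.91 and 10.07 in luminal cells, so luminal array 3 lay inside the basal range. Its difference was -1.54 (SE 0.48, adjusted p = 0.0223) on all arrays and -2.34 (adjusted p = 6.41e-06) without luminal array 3. Without luminal array 1 it was -1.02 (adjusted p = 0.11), and the call was also lost without luminal array 2 (-1.26, adjusted p = 0.0958) or control basal array 4 (-1.45, adjusted p = 0.0502). Cyp2d22 fell by 0.76 (SE 0.25, adjusted p = 0.027) with overlapping groups, and the call was lost without control basal array 2 or 3 or luminal array 1 or 2 (adjusted p from 0.0597 to 0.106).

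The 250 bases before the start of the genes with the widest rise and fall and of Cyp1b1 are shown from RefSeq (GRCm38.p6), read in the direction of transcription. Capitals mark the core of the xenobiotic response element bound by Ahr, GCGTG, on either strand (CACGC on the other). Cyp1b1 (chr17:79715062-79715311, minus strand) holds it at base -76 and Cyp2j9 (chr4:96591486-96591735, minus strand) at base -171, counted back from the start to the first base of the match. Cyp3a57 (chr5:145345019-145345268, plus strand) holds no match in this window.
Cyp1b1: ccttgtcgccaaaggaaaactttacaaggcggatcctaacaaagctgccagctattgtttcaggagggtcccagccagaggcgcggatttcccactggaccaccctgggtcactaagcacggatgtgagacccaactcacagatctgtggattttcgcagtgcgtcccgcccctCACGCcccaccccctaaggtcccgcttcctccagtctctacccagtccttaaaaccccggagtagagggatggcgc
Cyp2j9: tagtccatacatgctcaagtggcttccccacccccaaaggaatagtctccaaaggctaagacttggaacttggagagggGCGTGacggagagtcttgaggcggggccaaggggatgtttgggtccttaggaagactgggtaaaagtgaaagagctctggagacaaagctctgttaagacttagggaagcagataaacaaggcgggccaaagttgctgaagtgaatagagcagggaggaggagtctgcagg
Cyp3a57: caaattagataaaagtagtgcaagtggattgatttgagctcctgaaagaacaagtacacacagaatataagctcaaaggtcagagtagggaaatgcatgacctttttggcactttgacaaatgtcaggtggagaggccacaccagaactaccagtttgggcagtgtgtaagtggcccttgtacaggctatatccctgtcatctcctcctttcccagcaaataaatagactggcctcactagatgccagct

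Among the 18 soluble glutathione transferases above the limit, 5 rose in luminal cells, 6 fell and 7 did not pass. Gstm genes, the mu class, make up the largest group. Here 0 of 6 rose, 4 fell and 2 did not pass, with a median difference of -1.16 where the median over all genes was 0.07. Gstm5 read 10.43, 9.83, 10.35 and 10.05 in control basal cells and 8.69, 8.58 and 8.85 in luminal cells. The groups lay well apart, at -1.46 (SE 0.15, adjusted p = 1.64e-05). Gstm1 read 10.35, 10.50, 11.12 and 10.74 against 8.43, 8.78 and 9.86, with luminal array 3 nearest the basal arrays, and fell by 1.65 (SE 0.31, adjusted p = 0.00114).

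Gstm3 fell by 1.31 (SE 0.22, adjusted p = 0.000481) and Gstm7 by 1.02 (SE 0.26, adjusted p = 0.00768). The second probe set of Gstm3 differed by -0.51, so its probe sets agreed in sign but not in size. Gstm4 was 0.31 higher in luminal cells (SE 0.14, adjusted p = 0.102) and Gstm2 differed by -0.33 (SE 0.33, adjusted p = 0.477), so neither passed. In RefSeq's gene order on chromosome 3 the cluster runs Gstm5, Gstm7, Gstm6, Gstm3, Gstm2, Gstm1 and Gstm4, so the genes that fell are interspersed with members that did not pass. Gstm6 was under the dim limit. Mu-class transcripts are similar in sequence and may share hybridisation.

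In the theta class, neighbouring genes went opposite ways. Theta transferases act on small halogenated compounds and epoxides. Gstt3, Gstt1, Gstt4 and Gstt2 follow each other on chromosome 10. Gstt3 read 8.36, 8.15, 8.57 and 8.42 in control basal cells and 10.41, 10.19 and 10.21 in luminal cells (difference 1.89, SE 0.13, adjusted p = 4.63e-07). Gstt2 went the same way, from 7.04, 7.40, 7.51 and 7.30 to 9.31, 9.03 and 8.78 (1.73, SE 0.15, adjusted p = 3.83e-06). Gstt1, which lies between them, read 9.18, 9.97, 10.38 and 9.84 in control basal cells and 8.19, 8.02 and 8.59 in luminal cells (-1.58, SE 0.25, adjusted p = 0.000312). For all 3 genes the groups did not overlap, and the fourth, Gstt4, was under the dim limit.

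The windows before Gstt1 and Gstt3 are shown because these neighbours differed in direction, and that of Gstm5 because it holds matches to motifs of both regulators. Capitals mark GCGTG or CACGC as above and the core of the antioxidant response element bound by Nfe2l2, TGACNNNGC on either strand. Gstm5 (chr3:107895604-107895853, plus strand) holds the xenobiotic core at -171 and -38 and the antioxidant core at -42, and the match at -38 lies inside the one at -42. Gstt1 (chr10:75797732-75797981, minus strand) and Gstt3 (chr10:75781423-75781672, minus strand, the first of its 2 windows) hold neither.
Gstm5: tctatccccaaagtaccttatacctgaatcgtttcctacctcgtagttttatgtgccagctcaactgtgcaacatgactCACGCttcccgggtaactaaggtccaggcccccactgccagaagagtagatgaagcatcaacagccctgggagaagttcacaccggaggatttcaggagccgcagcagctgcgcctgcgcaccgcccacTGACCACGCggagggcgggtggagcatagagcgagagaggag
Gstt1: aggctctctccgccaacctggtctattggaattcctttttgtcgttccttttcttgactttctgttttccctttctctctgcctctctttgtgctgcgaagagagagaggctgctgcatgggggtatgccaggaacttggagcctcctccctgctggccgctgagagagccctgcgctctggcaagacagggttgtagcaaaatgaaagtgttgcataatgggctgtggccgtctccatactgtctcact
Gstt3: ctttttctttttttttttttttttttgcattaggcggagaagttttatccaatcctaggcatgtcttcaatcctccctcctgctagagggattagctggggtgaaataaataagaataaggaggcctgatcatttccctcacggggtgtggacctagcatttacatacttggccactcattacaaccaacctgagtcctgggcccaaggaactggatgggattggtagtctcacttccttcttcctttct

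Gsta4, which conjugates the aldehydes left by lipid peroxidation, rose in luminal cells. It read 10.62, 11.91 and 10.54 there and 7.76, 7.16, 7.94 and 10.09 in control basal cells, where array 4 stood above the other 3. The difference was 2.78 (SE 0.59, adjusted p = 0.00248). Gsta3, the other alpha-class member, differed by -0.05 (SE 0.24, adjusted p = 0.895). Gsto1, an omega-class enzyme that reduces dehydroascorbate, fell by 1.43 (SE 0.24, adjusted p = 0.000506), from 11.81, 11.39, 11.03 and 12.01 to 9.89, 9.91 and 10.59. Its groups did not overlap.

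Gstp1, the pi-class enzyme widely studied in tumours, read 11.75, 11.64, 11.76 and 11.15 in control basal cells and 12.38, 12.58 and 11.57 in luminal cells. The difference of 0.60 (SE 0.28) did not pass (adjusted p = 0.108), and without luminal array 3, which lay inside the basal range, it was 0.91 (adjusted p = 0.0182). Gstp3 rose by 0.75 (SE 0.12, adjusted p = 0.000347) from a basal mean under the dim limit. Its SSKO basal mean of 6.71 was also under it, so Gstp3 passed the limit only through its luminal mean of 7.21. Gstz1, which also isomerises maleylacetoacetate in tyrosine breakdown, rose by 0.52 (SE 0.17, adjusted p = 0.0252), a call lost without luminal array 2 (adjusted p = 0.062) or 3 (adjusted p = 0.0765).

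Of the 3 microsomal transferases, 1 rose, 0 fell and 2 did not pass. Mgst1, which protects membranes from peroxides, differed by -0.09 (SE 0.21, adjusted p = 0.778) and Mgst2 by -0.03 (SE 0.14, adjusted p = 0.899). Mgst3, which can also make leukotriene conjugates, rose by 0.51 (SE 0.15, adjusted p = 0.0142), and the call was lost without luminal array 1 (adjusted p = 0.0543). Among the sulfotransferases, Sult2b1, which sulfates cholesterol and related steroids, rose. It read 9.95, 9.31 and 9.22 in luminal cells and 6.92, 6.60, 5.91 and 7.08 in control basal cells (2.87, SE 0.28, adjusted p = 8.64e-06), with the basal mean under the dim limit. Sult5a1 differed by -0.46 (SE 0.19, adjusted p = 0.0677) and Sult1a1, a phenol sulfotransferase, by -0.32 (SE 0.31, adjusted p = 0.456).

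**Figure D2:**
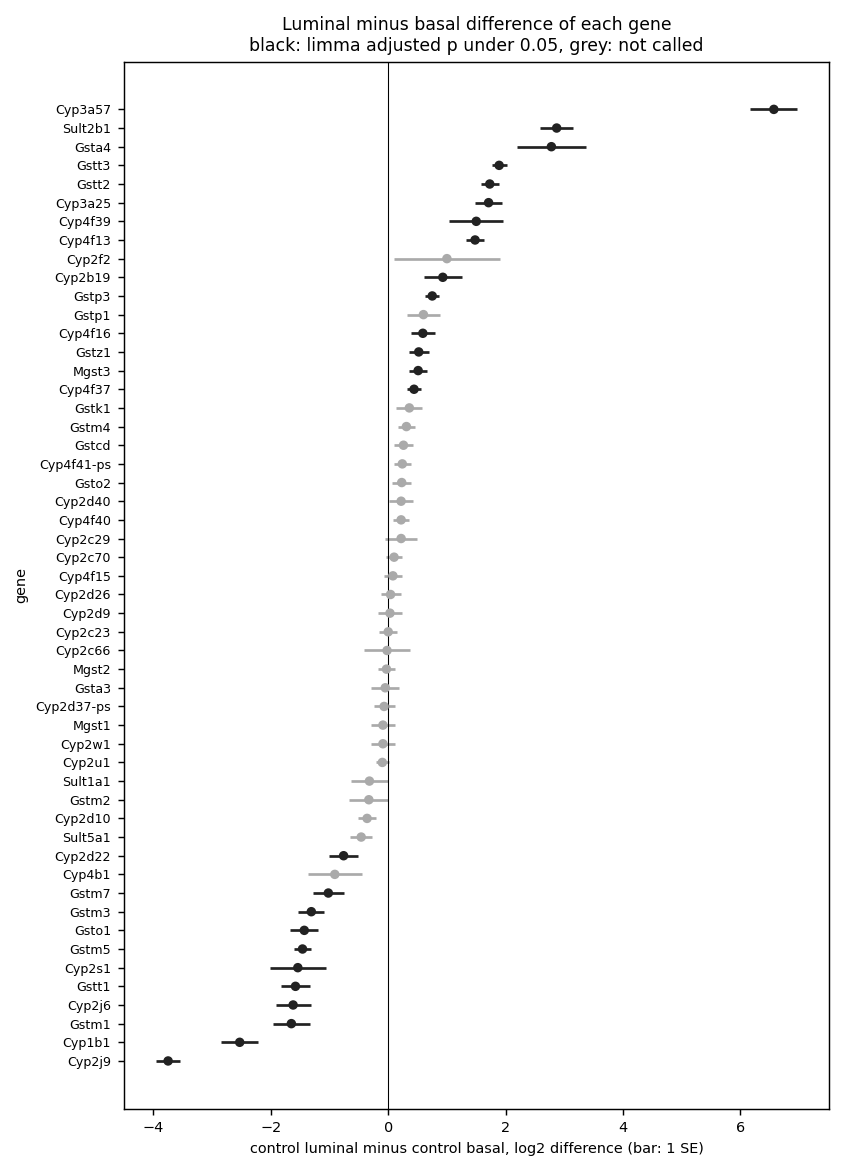
Log2 difference between control luminal (n = 3) and control basal (n = 4) arrays for each of the 52 members (horizontal axis), ordered by size, with bars of 1 SE; black marks an adjusted p under 0.05 and grey the rest. The 14 rises run up to 6.57 (Cyp3a57) and the 11 falls down to -3.75 (Cyp2j9), and the 27 grey genes lie between -0.91 and 1.00.

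Among the luminal arrays, array 3 was often the one nearest the basal level. For 10 of the 11 members that fell (90.9%) it was the luminal array nearest the basal level, which was so for 1874 of the 3114 genes that fell in all (60.2%). Among the 14 members that rose, it was nearest the basal side in 7 (50%), against 41.4% of all genes that rose. Its basal markers summed to an intensity of 11400, against 2510 and 1750 on the other luminal arrays and at least 57000 on control basal arrays. They were raised unevenly. Krt5 read 11.68 against 9.06 and 7.70, but Cnn1 8.30 against 7.97 and 6.87 and Mylk 6.70 against 6.37 and 5.71. Luminal progenitor markers also summed highest there, at 8650 against 4540 and 4820, but not as a set. Aldh1a3 read 12.04 against 10.58 and 9.64, and Kit 11.28 against 10.33 and 11.00. Elf5 (10.03 against 9.91 and 9.96) hardly differed, and Cd14 (9.94 against 9.70 and 10.02) lay between the other arrays. The part of either list in these values was not tested. Without luminal array 3, 11 members rose, against 14 on all arrays, and 11 fell, as on all arrays. Fibroblast markers, higher on every basal array than on any luminal array, moved in the same direction as the 11 falls, and their part was not tested either. In bulk RNA, fewer cells of a type and less RNA per cell cannot be told apart.

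**Figure D3:**
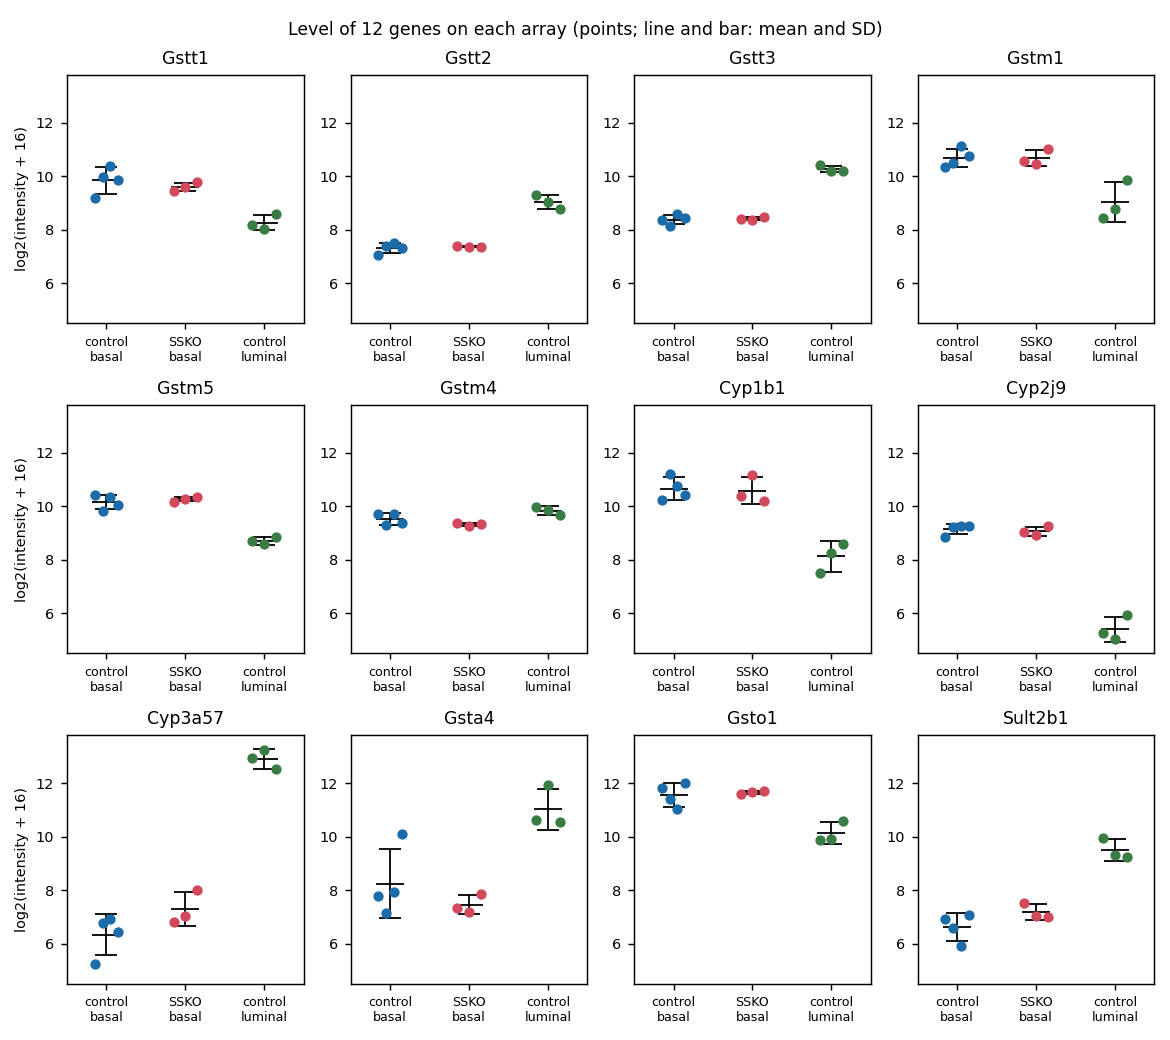
Level of 12 members, in log2(intensity + 16), on each array (points), by group, with the mean (line) and SD (bar); n is 4, 3 and 3 for control basal, SSKO basal and control luminal. Gstt2 and Gstt3 are higher and Gstt1 lower in luminal cells, Gstm1 and Gstm5 fall while Gstm4 overlaps between control basal and luminal arrays, and SSKO basal points lie among or near the control basal points.

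SSKO basal cells were compared with control basal cells, which asks what changed with loss of Pygo2. No member passed limma's test (0 of 52), where 0.0379% of all genes did (6 of 15815, 5 or 0.0316% higher and 1 or 0.00632% lower). At an unadjusted p under 0.05 there were 2 members, Cyp4b1 and Cyp3a57, and 3.03% of all genes. The median difference was 0.02 and the median size 0.12, against 0.01 and 0.10 over all genes. Differences lay within 0.5 of 0 for 48 of the 52 members, with 29 above 0 and 22 below. Standard errors ran from 0.11 to 0.90 with a median of 0.21, and a p that misses the threshold does not show that levels were equal.

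Of the genes called between luminal and basal cells, 5 are given here as examples, and Cyp3a57, Gsta4 and Sult2b1, which differed more between SSKO and control basal cells, follow below. Cyp1b1 read 10.39, 11.18 and 10.20 there and differed by -0.07 (SE 0.32). Gstm1, at 10.57, 10.44 and 11.03, had the same mean as control basal cells (10.68). Gstt3 differed by 0.04 (SE 0.13), Gstt2 by 0.06 (SE 0.15) and Gstt1 by -0.24 (SE 0.25). Each of these differences was smaller than its SE.

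Cyp4b1, which oxidises fatty acids and activates plant toxins, had the widest difference of the members. It read 10.66, 8.75 and 10.65 in SSKO basal cells, 9.47, 8.30, 9.25 and 8.66 in control basal cells and 8.08, 7.48 and 8.47 in luminal cells. SSKO arrays 1 and 3 lay above all control arrays, and SSKO array 2 lay among them. The difference was 1.1 (SE 0.46, unadjusted p = 0.0357, adjusted p = 1.0). SSKO arrays 1 and 3 were also the arrays brightest for endothelial markers, with means of 11.13 and 10.34 against 8.34 on SSKO array 2, and control basal array 1 at 10.19 had the highest Cyp4b1 among the controls. Adipocyte means were higher on SSKO arrays 1 and 3 as well, at 8.26 and 8.20 against 7.65, although Adipoq was under the dim limit in every group. Fabp4 (11.68, 9.12 and 10.52 on SSKO arrays 1 to 3) and Pparg (9.88, 8.14 and 9.13) carried much of this. Lep (6.63, 6.99 and 8.27) was high on SSKO array 3 only. Plin1 (8.14, 8.09 and 8.10) and Retn (7.47, 7.43 and 7.40) hardly differed, so the mean does not show a rise of the list as a whole. With SSKO arrays 1 and 3 and control basal array 1 left out, an alternative chosen after seeing the data that leaves 1 SSKO array, the difference was 0.01. Those arrays also held the highest Cyp4b1 values, so leaving them out had to shrink the difference and cannot show its source. The part of endothelial or other cells in the Cyp4b1 level was not tested.

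**Figure D4:**
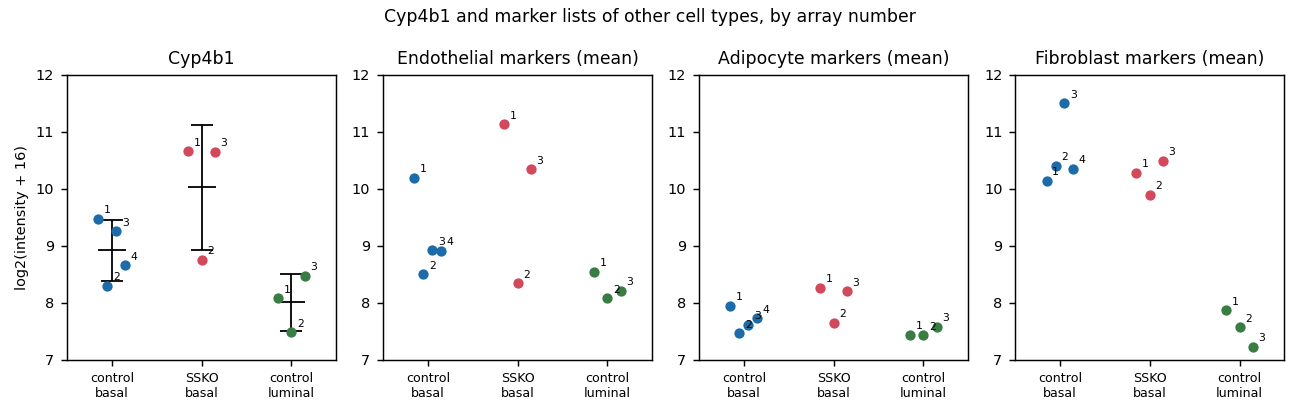
Level of Cyp4b1 (first panel, with mean and SD) and mean level of the endothelial, adipocyte and fibroblast marker lists (other panels) on each array, in log2(intensity + 16), labelled by array number within the group. SSKO basal arrays 1 and 3 and control basal array 1 are high for Cyp4b1 and for the endothelial markers (11.13, 10.34 and 10.19). They are also high for the adipocyte mean, to which Fabp4 and Pparg contribute much. Fibroblast markers peak on control basal array 3 (11.50).

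Cyp3a57 read 6.81, 7.04 and 8.00 in SSKO basal cells. It differed by 0.95 (SE 0.40, unadjusted p = 0.0367, adjusted p = 1.0) from a control mean under the dim limit. The groups overlapped. The difference was 0.58 without control basal array 1, 0.59 without SSKO array 3 and 0.33 with the 3 endothelial-bright arrays left out. Control basal array 1 (5.24) held the lowest control value and SSKO array 3 the highest SSKO value. Leaving out either had to shrink the difference, so this cannot show its source. Sult2b1 differed by 0.55 (SE 0.28) and likewise from under the limit; without control basal array 3 it was 0.31. Mature luminal markers had means of 10.04, 9.80 and 10.17 on the SSKO basal arrays, each above the highest control basal array at 9.72. They did not rise as a set. Foxa1 (10.64, 9.89 and 10.23, against at most 9.44) and Cited1 (9.97, 9.43 and 9.56, against at most 8.25) lay above every control basal array. Krt8, Krt18, Pgr, Prom1 and Esr1 overlapped, with Esr1 at 8.82, 8.64 and 9.28 against 8.41 to 10.06. The part of these markers in the Cyp3a57 and Sult2b1 values was not tested.

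Gstp3 was the only member whose SSKO and control basal arrays did not overlap (706 of all genes, 4.46%, were of this kind). It read 6.75, 6.72 and 6.65 against 6.43, 6.45, 6.58 and 6.36, a difference of 0.25 (SE 0.12) with both means under the dim limit. On the lower side the smallest unadjusted p-values belonged to Gstm4 at -0.21 (SE 0.14), Gsta4 at -0.78 (SE 0.59), Cyp2u1 at -0.12 (SE 0.11) and Gstz1 at -0.18 (SE 0.17). None of these passed. The Gsta4 value rested on control basal array 4 at 10.09, and without that array it was -0.17. The 3 microsomal transferases were 0.20 to 0.27 higher in value and the 3 sulfotransferases 0.21 to 0.55, and none of these passed.

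SSKO basal cells were also set against control luminal cells. This comparison shares its luminal arrays with the first comparison and its SSKO arrays with the last, so it is no separate evidence. Of the 52 members, 12 were higher in SSKO basal cells, 13 were lower (48.1% called) and 27 did not pass, where 42.3% of all genes were called (19.0% higher and 23.3% lower). Cyp3a57 differed by -5.62 (SE 0.43, adjusted p = 1.68e-06). Gsta4 differed by -3.56 (SE 0.63, adjusted p = 0.000849), Sult2b1 by -2.32 (SE 0.30, adjusted p = 8.86e-05), Gstt3 by -1.85 (SE 0.13, adjusted p = 1.22e-06) and Gstt2 by -1.67 (SE 0.16, adjusted p = 1.04e-05). These are steroid, aldehyde and xenobiotic enzymes on the luminal side of the first comparison.

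Cyp2j9 was higher in SSKO basal cells by 3.66 (SE 0.22, adjusted p = 3.03e-07), Cyp1b1 by 2.46 (SE 0.34, adjusted p = 0.000144), Gstm1 by 1.65 (SE 0.33, adjusted p = 0.00194), Gstm5 by 1.56 (SE 0.16, adjusted p = 2.08e-05) and Gstt1 by 1.33 (SE 0.26, adjusted p = 0.00172). Members called here but not between the control groups were Cyp4b1, Gstm4 and Sult5a1, whose differences between SSKO and control basal cells did not pass. Cyp4b1 was higher by 2.00 (SE 0.49, adjusted p = 0.00637), and by 0.73 with the endothelial-bright arrays left out, which also held its highest values. Gstm4 was lower in SSKO basal cells (-0.52, SE 0.15, adjusted p = 0.0166), and its call was lost without SSKO array 2 (adjusted p = 0.0538) or luminal array 1 (adjusted p = 0.0694). Sult5a1 was higher by 0.67 (SE 0.20, adjusted p = 0.0182), and its call was lost without SSKO array 2 (adjusted p = 0.0678) or luminal array 1 (adjusted p = 0.0758).

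Several smaller calls in this comparison were lost with fewer arrays. Gstm7 at 0.79 (adjusted p = 0.0414), Cyp2d22 at 0.72 (adjusted p = 0.0498) and Cyp4f39 at -1.48 (adjusted p = 0.0303) each lost the call when any of the 3 SSKO arrays was left out, and also without luminal array 1. Without an SSKO array their differences moved little, to between 0.72 and 0.84 for Gstm7, 0.67 and 0.78 for Cyp2d22 and -1.54 and -1.42 for Cyp4f39. Gstm7 and Cyp4f39 lost it without luminal array 3 too, and Cyp2d22 without luminal array 2 or control basal array 2 or 4. Cyp4f16, at -0.74 (SE 0.22, adjusted p = 0.0184), was -0.48 (adjusted p = 0.0683) without SSKO array 3 and lost the call without luminal array 2 (adjusted p = 0.0674). With the endothelial-bright arrays left out, the lone SSKO array borrows its spread from the remaining groups, so counts of calls from that fit are not given.

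The enzymes depend on cosubstrates, electron donors, regulators and exporters, and 59 such partner genes were listed. Of these, 53 had a probe set of their own and 49 passed the dim limit; Por, the P450 oxidoreductase, was among those without one. In luminal against control basal cells 9 of the 49 rose, 18 fell (55.1% called, against 44.3% of all genes, 24.6% higher and 19.7% lower) and 22 did not pass. Glutathione synthesis and recycling rose in part: 4 of 6 genes rose and 1 fell. Gsr, which reduces oxidised glutathione, rose by 2.12 (SE 0.17, adjusted p = 2.38e-06), from 10.35, 10.69, 9.87 and 10.20 to 12.53, 12.32 and 12.33. Gclc, the catalytic subunit of the rate-limiting step, rose by 1.93 (SE 0.23, adjusted p = 4.03e-05) and Gss, which completes the tripeptide, by 0.90 (SE 0.13, adjusted p = 0.000187). Ggct, which breaks down gamma-glutamyl peptides, rose by 1.96 (SE 0.26, adjusted p = 9.98e-05) from under the dim limit.

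The fall in that list was Slc7a11, the cystine carrier that feeds glutathione synthesis. It read 9.62, 9.23, 9.02 and 10.42 in control basal cells and 6.89, 6.75 and 7.32 in luminal cells (-2.59, SE 0.29, adjusted p = 3.06e-05). Gclm, the modifier subunit, differed by -0.41 (SE 0.17, adjusted p = 0.0708). The genes of this list thus did not all go the same way. Nfe2l2 itself was lower in luminal cells, at 11.54, 11.59 and 11.74 against 12.40, 12.25, 12.50 and 12.62 (-0.82, SE 0.12, adjusted p = 0.000269), and its inhibitor Keap1 was higher by 0.33 (SE 0.12, adjusted p = 0.0382).

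All 5 genes listed as other Nfe2l2 targets, reductases and the haem oxygenase Hmox1, fell in luminal cells, whereas Gclc and Gsr of the glutathione list rose. Hmox1, which degrades haem, fell by 2.08 (SE 0.35, adjusted p = 0.000588) and Cbr3, a carbonyl reductase, by 1.80 (SE 0.22, adjusted p = 5.75e-05). Txnrd1, Nqo1 and Srxn1 fell by 1.02, 0.91 and 0.89. Nqo1, a quinone reductase, read 8.64, 8.90, 8.44 and 8.79 in control basal cells and 7.99, 7.22 and 8.15 in luminal cells (SE 0.22, adjusted p = 0.00516). Ahr differed by -0.43 (SE 0.22, adjusted p = 0.134), and by -0.59 (adjusted p = 0.0321) without control basal array 4. Tiparp, an Ahr target, fell by 1.56 (SE 0.12, adjusted p = 1.54e-06).

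Genes for cosubstrates and export also split. Ugdh, which makes UDP-glucuronic acid, read 11.60, 11.70, 11.51 and 11.65 in control basal cells and 9.98, 10.08 and 10.01 in luminal cells, with little spread in either (-1.59, SE 0.10, adjusted p = 4.23e-07). Slc35d1, which carries UDP-glucuronic acid into the endoplasmic reticulum, fell by 1.80 (SE 0.14, adjusted p = 1.67e-06). For sulfation, Papss1, which makes the sulfate donor, rose by 0.56 (SE 0.12, adjusted p = 0.00294). Bpnt1, which clears its by-product, rose by 0.74 (adjusted p = 0.0183), a call lost without luminal array 3 (adjusted p = 0.0664). Among exporters of conjugates and drugs, Abcc3 rose by 2.81 (SE 0.28, adjusted p = 1.11e-05), while Abcb1b fell by 3.35 (SE 0.20, adjusted p = 1.8e-07) to under the dim limit. Ephx1, the microsomal epoxide hydrolase, fell by 1.44 (SE 0.19, adjusted p = 8.7e-05), and Fdx1, an electron donor of mitochondrial P450 enzymes, rose by 1.49 (SE 0.11, adjusted p = 1.46e-06).

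**Figure D5:**
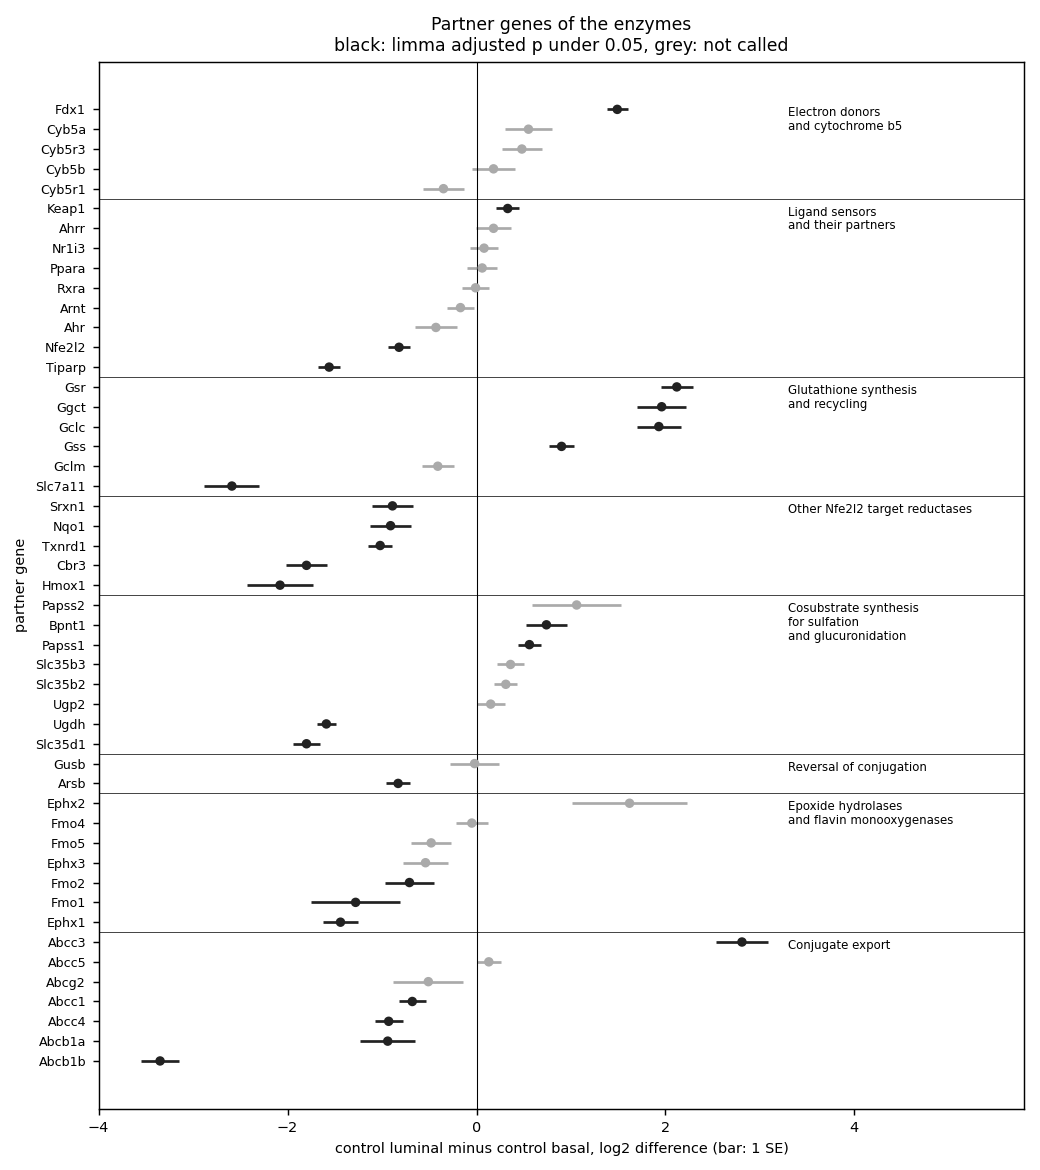
Log2 difference between control luminal (n = 3) and control basal (n = 4) arrays for the 49 partner genes above the dim limit, by list, with bars of 1 SE; black marks an adjusted p under 0.05. Abcc3 (2.81) and Gsr (2.12) lie farthest to the luminal side and Abcb1b (-3.35) and Slc7a11 (-2.59) farthest to the basal side.

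Between SSKO and control basal cells 0 of the 49 partner genes passed limma's test, where 0.0379% of all genes did. At an unadjusted p under 0.05 there was 1 of the 49, against 3.03% of all genes. This was Cyb5a, the cytochrome b5 that donates electrons to P450 enzymes (0.55, SE 0.25, unadjusted p = 0.0476, adjusted p = 1.0). Fmo1, a flavin monooxygenase, differed by 0.58 (SE 0.47), reading 10.45, 8.25 and 9.88 in SSKO basal cells, high on the same arrays 1 and 3 as the endothelial markers. Without the endothelial-bright arrays its difference was -0.53, but those arrays also held the highest Fmo1 values, so this cannot show its source. Abcc5 differed by -0.25 (SE 0.13) and Abcc4 by -0.23 (SE 0.15). The regulators lay near 0, with Nfe2l2 at 0.09 (SE 0.12) and Ahr at 0.06 (SE 0.22). Nqo1, listed as an Nfe2l2 target, differed by -0.19 (SE 0.22). Ahr's value changed sign under several alternatives.

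Against luminal cells, 18 of the 49 partner genes were higher in SSKO basal cells and 10 were lower (57.1% called, against 42.3% of all genes, 19.0% higher and 23.3% lower). Abcb1b was higher by 3.26 (SE 0.21, adjusted p = 5.11e-07), and Abcc3 differed by -2.87 (SE 0.30, adjusted p = 2e-05). Nqo1 was higher by 0.71 (SE 0.23, adjusted p = 0.0278), a call lost without SSKO array 2 (adjusted p = 0.0665) or 3 (adjusted p = 0.103), and 0.43 (adjusted p = 0.0979) without luminal array 2. Keap1 was lower (-0.45, adjusted p = 0.0117), and lost the call without SSKO array 1 (adjusted p = 0.0512) or 3 (adjusted p = 0.0503).

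Promoter windows were searched for the members as well. RefSeq held a window for 98 of the 117 members and 45 of the 52 above the dim limit. The xenobiotic core occurred in 11 of those 45 (24.4%), against 28.2% of 27025 genes with a window of the same length, and the antioxidant core in 3 (6.67%) against 10.1%. The xenobiotic core was in 4 of 12 windows of members that rose in luminal cells (33.3%), 4 of 10 that fell (40.0%) and 3 of 23 that did not pass (13.0%). For the antioxidant core the counts were 0 of 12, 1 of 10 and 2 of 23. A match describes letters in the window only, and its absence says nothing of the factor.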

How the data were processed

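Total RNA was measured on 10 Affymetrix arrays, 1 per sample. The deposited table holds a linear intensity per probe set and array; per the submitters' processing notes, Affymetrix Expression Console 1.1 and PLIER 2.0 were used. Normalization between arrays and any batch are not given in the sources used here. Array medians lay between 205 and 228. Of 28815 probe sets, 21780 had 1 gene symbol in the platform annotation, 1605 several and 5430 none; only the first kind was named, with the brightest probe set per gene. Values were taken as log2(intensity + 16), which understates changes of dim genes. A model with 3 group means was fitted to 15815 genes on all 10 arrays with limma 3.58.1 (lmFit, eBayes) in R 4.3.3, two-sided, with Benjamini-Hochberg adjustment over all genes and a call at an adjusted p under 0.05. The procedure was tested on simulated data.

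The members, marker lists and partner lists were chosen with earlier results of these data known. Genes named were, per comparison, up to 10 called members in each direction whose groups did not overlap, or up to 4 with the smallest p where fewer than 4 were called; the brightest member of each family; the members nearest the dim limit; and up to 8 called partner genes per direction (2 where none was called) plus Ahr, Nfe2l2 and Nqo1. Other members and partner genes, Cyp2s1, Cyp4f39, Cyp4b1 in luminal cells and Ephx2 among them, were named after their values were seen. Alternatives were quantile normalization, median centring, other pseudocounts and filters, other probe set rules, other variance settings, a replicate block and leaving out arrays. The number of arrays limits the precision. Plots used matplotlib 3.10.9 (Python 3.11.15).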

Additional observations from a re-analysis of the deposited data

Results flagged for a closer look

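Over the 60 genes named, 2 had a control basal array far from the other 3; chance alone gives about 1 in 20 such groups. Cyp2j9 read 8.86 on control basal array 1, where the other arrays reached up to 9.28. Ephx1 read 10.87 on the same array, where the others reached up to 11.26. In each gene every luminal array lay far lower still.

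Probe sets annotated to several genes were not used in the comparisons, and 5 of them had an array more than 1 log2 unit above every control basal array. The set shared by Cyp3a59, Cyp3a57 and Cyp3a25 reached 11.8 on luminal array 2, where the highest control basal value was 5.56. The 4 sets shared by Gsta1, Gsta2, Gm10639 and Gm3776, alpha-class transferases, reached 14.07, 13.79, 9.43 and 9.43 on luminal array 2, against control basal maxima of 7.48, 7.39, 7.29 and 7.51. On luminal array 3 the same 4 sets read 7.50, 7.40, 7.44 and 7.47, at the basal level, and on luminal array 1 they read 12.27, 12.01, 7.89 and 8.01. The 3 luminal arrays thus differed widely from each other for these sets. None of these differences between groups was tested.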

How the results depend on the processing

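Luminal against basal, members called higher numbered 14 on all arrays and 8 with the filter at the 50th percentile, which keeps 32 members. SSKO basal against luminal, members called lower went from 13 to 8 under that filter. With the arrays brightest for endothelial markers left out, chosen after seeing the data, a lone SSKO array remained, so counts of calls from that fit are not given. Leaving out each array in turn gave 11 to 14 higher and 9 to 13 lower members, and 8 to 10 higher and 15 to 19 lower partner genes, for luminal against basal. For SSKO basal against luminal it gave 9 to 13 and 11 to 14 members and 16 to 18 and 7 to 11 partner genes, and for SSKO against control basal 0 throughout. A lone array left in a group borrows its spread from the others. Reversed signs, all of uncalled differences, were these. Between SSKO and control basal cells, Fmo1 (0.58) was -0.53 with the endothelial-bright arrays left out, and Ahr (0.06) was -0.10 with the replicate block, -0.10 without control basal array 4 alone or with luminal array 3, and ranged from -0.12 to 0.21 with single arrays left out. Between luminal and basal cells, Mgst1 (-0.09) ranged from -0.37 to 0.14 with single arrays left out, and Cyp2f2 (1.00) from -0.19 to 1.65, the lowest without luminal array 3, and was -0.06 with array weights; the cause was not tested. Of 115 named differences, 88 were called, and 17 of these lost the call under at least 1 of 22 alternatives. The replicate block gave 13 higher and 13 lower members for luminal against basal, 14 and 14 for SSKO basal against luminal, and 0 for SSKO against control basal. The labels give no basis for pairing beyond a shared number and the word littermates. Between SSKO and control basal arrays, same-numbered deviations correlated at 0.047 to 0.635, and those of unlike number at -0.437 to 0.171. Same-numbered ranges were -0.081 to -0.06 for luminal and control basal arrays and 0.028 to 0.182 for SSKO basal and luminal arrays. Correlations were not above 0.1 in every pair, so the numbers were not treated as pairs. Whether same-numbered SSKO and control basal arrays share an origin was not tested. Under the block Cyp4f16 lost its luminal call (0.48, adjusted p = 0.0961), Ahr gained one (-0.59, adjusted p = 0.0331), as did Cyp4b1 (-0.99, adjusted p = 0.00938) and Ephx2 (1.95, adjusted p = 0.00594), and Pygo2 lost its call (-2.24, adjusted p = 0.177). Weak signals near the dim limit bound what can be said of 65 members.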

Other observations

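The Ugt1a genes, whose enzymes attach glucuronic acid to bilirubin, oestrogens and drugs, share a probe set annotated to 8 of them, so no gene of the family could be named. This set read 9.31, 9.20, 10.08 and 8.91 in control basal cells and 9.36, 9.37 and 8.90 in SSKO basal cells. Luminal arrays read 5.35, 5.47 and 6.56, all under the dim limit and far below every basal array. The group means were 9.38 ± 0.50 (SD, n = 4), 9.21 ± 0.27 (SD, n = 3) and 5.79 ± 0.67 (SD, n = 3), and no test was made on this set. Ugdh and Slc35d1, which make and carry the cosubstrate of these enzymes, were lower in luminal cells as well.

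Cyp2f2, known from the airway epithelium, and Ephx2, the soluble epoxide hydrolase, varied widely within the control groups. Cyp2f2 read 7.72, 6.54, 8.90 and 9.95 in control basal cells and 7.96, 8.22 and 11.63 in luminal cells, so luminal array 3 lay above all others. Ephx2 read 7.28, 6.36, 7.59 and 8.41 in control basal cells and 8.04, 8.29 and 10.77 in luminal cells. For both genes control basal array 2 was lowest, control basal array 4 was the highest control basal array and luminal array 3 the highest of all. Neither passed the luminal against basal test (Cyp2f2 1.00, SE 0.90, adjusted p = 0.426; Ephx2 1.62, SE 0.61, adjusted p = 0.0517).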
